A study of Mus musculus with 14 samples.

Results

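The 10 genes described here encode the fibrillins and the proteins of elastic microfibrils: Fbn1, Fbn2, Mfap2, Mfap4, Mfap5, Emilin1, Emilin2, Eln, Ltbp1 and Ltbp2. They were selected on RNA levels in the comparison of sgNSD3 with sgControl, taken by symbol, and all 10 were found both among the 55433 genes of the RNA table and among the 22470 gene bodies of the chromatin table. Fibrillins are large secreted glycoproteins that line up outside the cell as beaded microfibrils. Microfibrils are the scaffold on which elastin is laid down, and they also hold latent TGF-beta and bone morphogenetic proteins in the matrix. In tissues they are made mainly by mesenchymal cells such as fibroblasts and smooth muscle cells.

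Cells cultured from a mouse tumor (strain C57BL/6, passages 6 to 8, coated dishes) had received a guide RNA against Nsd3 (sgNSD3) or a control guide (sgControl). The protein of Nsd3 places methyl groups on lysine 36 of histone H3. Each label has 3 RNA libraries, and the series of 14 samples further holds 4 H3K36me2, 2 H3K27me3 and 2 IgG libraries. The labels give neither the kind of tumor, nor whether a label stands for a pool or a clone of edited cells, nor whether the 3 RNA samples of a label were separate cultures. P-values here thus measure only how far these samples differ, which may be a technical spread.

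RNA values are normalized counts: whole reads recovered from the authors' log2 values and divided by their size factors, from library totals of 20294828 to 21863833 reads. Chi-square per degree of freedom between libraries was 1.3 to 1.42 within sgNSD3, 2.73 to 9.06 within sgControl and 6.78 to 7.62 between the labels, and no pair was merged. The library of sgControl replicate 1 stood apart from its own label, at 6.07 from replicate 2 and 9.06 from replicate 3, about as far as the labels stood from each other. Without it the members' log2 folds were 0.52 for Fbn1, 1.00 for Fbn2, -0.07 for Mfap4, -0.79 for Mfap5, 0.46 for Emilin1, 1.79 for Emilin2, 0.09 for Ltbp1 and 0.24 for Ltbp2, each in the direction given below. Reads of ribosomal RNA loci took 9.31% to 9.47% of the sgNSD3 libraries and 7.99% to 10.57% of the sgControl libraries. Nsd3 itself (chromosome 8, 25601601 to 25719667, mm10) went against its label, with more RNA in libraries labelled sgNSD3, at 21989, 22012 and 21837 normalized counts, against 14568, 14402 and 14675 in those labelled sgControl, a 1.51-fold difference (limma adjusted p = 5.86e-14). Every direction below therefore rests on the labels, and counts over a whole gene cannot tell whether a guide disrupted its protein. The label tumor-derived cells names no cell type that markers could check. Epcam, an epithelial adhesion gene, had 0 reads in every library, and the basal keratin Krt5 had at most 1. Of 8 epithelial markers 4 could be tested and 3 were lower (Krt14, Krt18 and Krt19). The summed level, most of it from Krt19, was 3072 to 3103 normalized counts in sgNSD3 libraries and 4264 to 4826 in sgControl libraries. Of 7 fibroblast markers 6 could be tested, 3 were higher (Pdgfrb, Col1a1 and Thy1) and 1 was lower (Pdgfra). Col3a1 and Dcn were neither, and Lum had at most 2 reads in any library. The summed level of the 7, most of it from Col1a1, was 502401 to 504805 in sgNSD3 libraries and 427601 to 495028 in sgControl libraries. Of these fibroblast markers 1, Dcn, is also counted among the proteoglycans below. Of 5 smooth muscle markers 4 were tested, with Cnn1 higher and Tagln lower. Their summed levels, nearly all from Acta2 and Tagln, were 51011 to 51857 in sgNSD3 libraries and 52299.8 to 53025 in sgControl libraries. The 5 endothelial markers summed to 197.4 to 236.8 in sgNSD3 and 119.8 to 144.5 in sgControl libraries, mostly from Kdr. Kdr was higher among 2 tested, and Cdh5 and Emcn had 1 read or fewer. The 6 leukocyte markers summed to 62.01 to 75.27 in sgNSD3 and 71.03 to 87.08 in sgControl libraries, nearly all from Cd68. The part of these markers in the differences below was not tested. Ribosomal RNA was examined only through scaling, by leaving mitochondrial genes and ribosomal RNA loci out of the library totals. The log2 folds were then 0.493 for Fbn1, 0.944 for Fbn2, -0.084 for Mfap4 and -0.874 for Mfap5. Under the same scaling they were 0.41 for Emilin1, 1.783 for Emilin2, 0.097 for Ltbp1 and 0.21 for Ltbp2. The part of ribosomal RNA was otherwise not tested.

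Promoter sequence is shown first for 4 members whose RNA was higher in the libraries labelled sgNSD3. They moved in 1 direction, so the letters can be set against each other. Fbn2 and Emilin1 were also higher but have no window here, so the comparison covers 4 of the 6 higher members. Each line gives 180 bases on the gene's own strand, from 250 to 71 bases before a RefSeq start, all outside the RefSeq span of the gene (RefSeq table, GRCm38.p6). Capitals mark matches, on either strand, to 1 of 6 motifs: the TATA box (TATAAA), the GC box (GGGCGG), the AP-1 element (TGANTCA), the TEAD element (GGAATG), the CCAAT box (CCAAT) and the SMAD element (GTCTAGAC). The AP-1 and SMAD elements read the same on both strands, and no motif overlapped another.
Fbn1, minus strand, chr2:125506509-125506688: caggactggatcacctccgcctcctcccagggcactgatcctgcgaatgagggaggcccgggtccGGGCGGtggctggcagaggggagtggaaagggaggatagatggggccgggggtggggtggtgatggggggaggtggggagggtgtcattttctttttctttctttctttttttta
Emilin2, minus strand, chr17:71311627-71311806: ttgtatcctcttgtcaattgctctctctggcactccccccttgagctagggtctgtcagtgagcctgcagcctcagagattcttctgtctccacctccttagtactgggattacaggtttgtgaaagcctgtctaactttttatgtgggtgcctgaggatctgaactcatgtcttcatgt
Ltbp2, minus strand, chr12:84876562-84876741: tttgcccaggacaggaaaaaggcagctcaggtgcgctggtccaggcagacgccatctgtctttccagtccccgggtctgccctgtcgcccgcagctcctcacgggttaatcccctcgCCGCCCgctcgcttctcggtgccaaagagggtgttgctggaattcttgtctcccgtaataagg
Ltbp1, plus strand, chr17:75005279-75005458: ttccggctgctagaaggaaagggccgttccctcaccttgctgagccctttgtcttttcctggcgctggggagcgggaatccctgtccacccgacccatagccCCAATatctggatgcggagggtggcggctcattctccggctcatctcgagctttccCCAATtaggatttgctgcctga

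No motif of the 6 was shared by all 4 windows. The GC box stood in the Fbn1 and Ltbp2 windows, and 21.1% of 32851 RefSeq windows of the same length hold it. CCAAT stood 2 times in the Ltbp1 window, against at least 1 match in 25.0% of all windows. The Emilin2 window held no match and no CpG, where the median window holds 4, while the Fbn1, Ltbp1 and Ltbp2 windows held 6, 9 and 12. The TATA box, found in 8.37% of all windows, the AP-1 element (4.93%), the TEAD element (9.76%) and the SMAD element (0.137%) were in none of the 4. The start used for Emilin2 is at the outer end of its RefSeq span, and it has another RefSeq start downstream, whose window is not shown. The starts used for Fbn1, Ltbp1 and Ltbp2 lie a short way inside their spans. A missing match says only that these letters are not in these 180 bases.

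The fibrillin genes were both higher in the libraries labelled sgNSD3. Fbn1, the main fibrillin of adult microfibrils and the gene mutated in Marfan syndrome, lies on chromosome 2 from 125300594 to 125506485 (mm10). It had 30763, 30521 and 30978 normalized counts in sgNSD3 replicates 1, 2 and 3, against 22671, 21426 and 21569.8 in sgControl replicates 1, 2 and 3. Every sgNSD3 library stood above every sgControl library, and the sgControl libraries spread more widely than the sgNSD3 ones. Fbn1 averaged 30754 ± 229 in sgNSD3 and 21889 ± 681 in sgControl libraries (SD, n = 3 each), 1.41-fold higher, with a log2 fold of 0.49 ± 0.026 (SE). In bulk RNA, a change in the number of cells with a transcript and a change in transcript per cell cannot be told apart.

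Fbn2, the fibrillin that predominates in the embryo, lies on chromosome 18. It had 789.6, 720.1 and 726.3 normalized counts in sgNSD3 libraries, against 421.0, 381.8 and 361.3 in sgControl libraries. The highest sgControl library stayed below the lowest sgNSD3 library, with replicate 1 the highest of its label in both. Fbn2 averaged 745.3 ± 38.4 in sgNSD3 and 388.0 ± 30.3 in sgControl libraries (SD, n = 3 each), 1.92-fold higher, with a log2 fold of 0.94 ± 0.063 (SE). The difference of Fbn2 was larger than that of Fbn1 in proportion. Per 1000 reads of Fbn1, which needs no scaling between libraries, Fbn2 had 25.7, 23.6 and 23.4 reads in sgNSD3 libraries and 18.6, 17.8 and 16.8 in sgControl libraries.

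Eln, which encodes tropoelastin, the monomer of elastin, had almost no reads beside these fibrillin levels. It had 0 reads in each sgNSD3 library, and 2, 1 and 1 reads in sgControl replicates 1, 2 and 3. A count of 0 allows up to 3 reads, or 2.88 to 3.1 normalized counts in the sgNSD3 libraries, so both labels lie at or under what a count of 0 allows and no fold is given. Such limits cover counting error only. Elastin RNA was thus not detectable at this depth in sgNSD3 libraries, and no difference between the labels could be seen.

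Mfap2, Mfap5 and Mfap4 encode microfibril-associated proteins, and 1 of the 3 separated the labels. Mfap5 (MAGP-2), a small glycoprotein that binds fibrillin, was the only tested member that passed the threshold as lower in the libraries labelled sgNSD3. It had 48.57, 46.98 and 59.63 normalized counts in sgNSD3 libraries, against 107.6, 84.21 and 95.4 in sgControl libraries. The labels did not overlap: the highest sgNSD3 library stayed below the lowest sgControl library. Mfap5 averaged 51.73 ± 6.89 in sgNSD3 and 95.73 ± 11.7 in sgControl libraries (SD, n = 3 each), 1.85-fold lower, with a log2 fold of -0.88 ± 0.15 (SE). Because Fbn1 was itself higher in sgNSD3 libraries, the gap had to be wider when set against it within each library. Mfap5 had 1.58, 1.54 and 1.92 reads per 1000 Fbn1 reads in sgNSD3 libraries, and 4.75, 3.93 and 4.42 in sgControl libraries.

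Mfap2 (MAGP-1), the relative of Mfap5 that also sits on fibrillin beads, had few reads in any library. It had 3, 5 and 3 reads in sgNSD3 libraries and 3, 6 and 5 in sgControl libraries, below the minimum of 8 normalized counts on average that the test asked for. Mfap4, a fibrinogen-related protein of elastic fibres, had 10.33, 9.589 and 8.798 normalized counts in sgNSD3 libraries, against 10.45, 7.655 and 13.19 in sgControl libraries. Its labels overlapped, and its log2 fold was -0.09 ± 0.34 (SE), an error too wide to show a difference of the size seen for Fbn1.

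**Figure D1:**
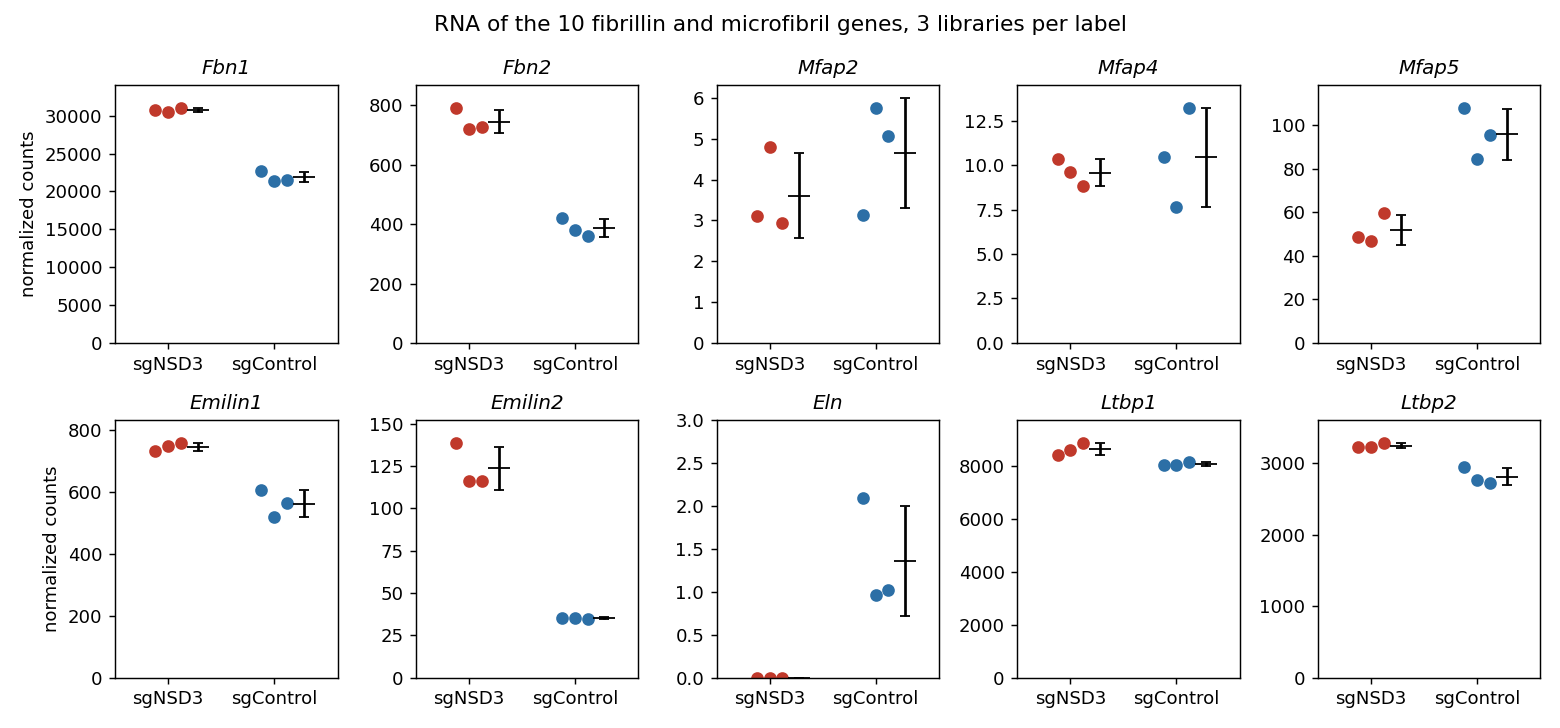
Normalized counts (y axis, from 0, a scale of its own in each panel) of the 10 genes in the 3 libraries labelled sgNSD3 (red, left) and the 3 labelled sgControl (blue, right), with the mean and SD in black beside the points. Fbn1, Fbn2, Emilin1, Emilin2, Ltbp1 and Ltbp2 lie higher without overlap in sgNSD3 libraries, Mfap5 lies lower, and Eln has 0 counts in all 3 sgNSD3 libraries.

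EMILINs are glycoproteins found where elastin meets the microfibril, and both members measured here were higher in the libraries labelled sgNSD3. Emilin2 lies on chromosome 17 from 71252172 to 71311556 (mm10). In sgNSD3 libraries it had 138.5, 116.0 and 116.3 normalized counts, against 35.51, 35.41 and 34.51 in sgControl libraries. The sgControl libraries were nearly level with one another, at 34, 37 and 34 reads, closer than counting error alone would be expected to give. Every sgNSD3 library was far above them. Emilin2 averaged 123.6 ± 12.9 in sgNSD3 and 35.14 ± 0.553 in sgControl libraries (SD, n = 3 each), 3.52-fold higher, and its log2 fold of 1.78 ± 0.15 (SE) was the largest among the 8 members tested.

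Emilin1, whose protein is known to restrain the maturation of TGF-beta precursors, had 730.7, 747.9 and 757.6 normalized counts in sgNSD3 libraries, against 604.8, 518.7 and 564.3 in sgControl libraries. The labels did not overlap, and Emilin1 averaged 745.4 ± 13.7 in sgNSD3 and 562.6 ± 43.1 in sgControl libraries (SD, n = 3 each), 1.32-fold higher, with a log2 fold of 0.41 ± 0.058 (SE). Emilin2 differed more than Emilin1: per 1000 Emilin1 reads there were 190, 155 and 154 Emilin2 reads in sgNSD3 libraries and 58.7, 68.3 and 61.2 in sgControl libraries. Emilin1 kept pace with Fbn1, with 24.2 ± 0.42 reads per 1000 Fbn1 reads in sgNSD3 libraries and 25.7 ± 1.3 in sgControl libraries (SD, n = 3 each), ranges that overlap.

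The latent TGF-beta binding proteins Ltbp1 and Ltbp2 were a little higher in the libraries labelled sgNSD3, and less so than the fibrillins in proportion. Ltbp1 anchors latent TGF-beta in the matrix. It had 8425, 8633 and 8876 normalized counts in sgNSD3 libraries, against 8064, 8046 and 8165 in sgControl libraries. The labels did not overlap, with 8425 as the lowest sgNSD3 and 8165 as the highest sgControl library. Ltbp1 averaged 8645 ± 226 in sgNSD3 and 8092 ± 64.1 in sgControl libraries (SD, n = 3 each), 1.07-fold higher, with a log2 fold of 0.10 ± 0.028 (SE). Ltbp1 did not pass the all-gene threshold without sgControl replicate 2, sgNSD3 replicate 2 or sgNSD3 replicate 3.

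Ltbp2, which binds fibrillin-1 but not latent TGF-beta, had 3225, 3229 and 3278 normalized counts in sgNSD3 libraries, against 2947, 2766 and 2719.9 in sgControl libraries. The sgNSD3 libraries were close together and above all sgControl libraries. Ltbp2 averaged 3244 ± 29.1 in sgNSD3 and 2811 ± 120 in sgControl libraries (SD, n = 3 each), 1.15-fold higher, with a log2 fold of 0.21 ± 0.035 (SE). Per 1000 Fbn1 reads the direction turned, which follows from the larger Fbn1 difference. Ltbp1 had 281 ± 6.5 such reads in sgNSD3 libraries and 370 ± 12 in sgControl libraries (SD, n = 3 each). For Ltbp2 the same ratio was 105 ± 0.56 in sgNSD3 libraries and 128 ± 2 in sgControl libraries. A noncoding gene, D030025P21Rik, overlaps 757 bases of Ltbp2 and averaged 260.9 normalized counts in sgNSD3 and 258.5 in sgControl libraries, and the sources used here do not give whether reads were counted by strand.

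**Figure D2:**
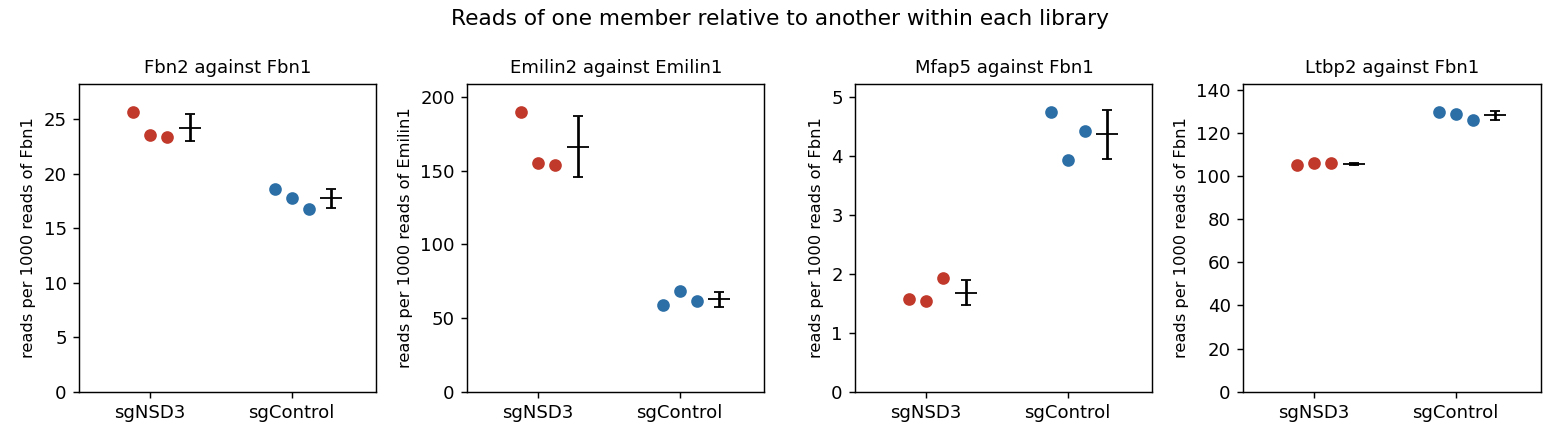
Reads of one gene per 1000 reads of another within the same library (y axis, from 0), for libraries labelled sgNSD3 (red, left) and sgControl (blue, right), with mean and SD in black. The ratios of Fbn2 to Fbn1 and of Emilin2 to Emilin1 are higher in all 3 sgNSD3 libraries, and those of Mfap5 and Ltbp2 to Fbn1 are lower.

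The 10 genes took 0.21% to 0.213% of all reads in sgNSD3 libraries and 0.16% to 0.163% in sgControl libraries. Fbn1 gave 69.1% to 69.7% of these reads in sgNSD3 libraries and 64.3% to 65.0% in sgControl libraries. These shares are not adjusted for transcript length, so levels of different genes are not ranked. Of the 8 members that passed the minimum, 6 passed the all-gene limma threshold (adjusted p of 0.05) as higher and 1 as lower. Over all 18263 genes tested, 5.44% passed as higher, 6.44% as lower and 11.9% in either direction. The labels did not overlap, with sgNSD3 higher, for those 6 members and for 14.0% of all tested genes. They did not overlap, with sgNSD3 lower, for Mfap5 and for 14.4% of tested genes. The median log2 fold was 0.31 over the 8 members and 0.000706 over all tested genes. The members were chosen with this contrast known, so these counts describe them and support nothing.

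Spread within labels, pooled over sgNSD3 and sgControl, is given as a description. Each member was placed among the 500 tested genes nearest to it in mean level, by its SD within labels on the log2 scale. Emilin2 had a low spread for its level (SD 0.10, percentile 12.4) and Fbn2 a high one (SD 0.094, percentile 81.0). Counting error alone would give Emilin2 an SD of about 0.2, so its low spread does not show a steady gene. Fbn1 (SD 0.032, percentile 54.6), Mfap5 (0.18, 50.2), Ltbp1 (0.028, 41.2), Ltbp2 (0.044, 63.8) and Emilin1 (0.081, 71.6) were in between. Mfap4, with about 10 reads per library, was at percentile 16.4, with an SD of 0.26 where counting error gives about 0.46.

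**Figure D3:**
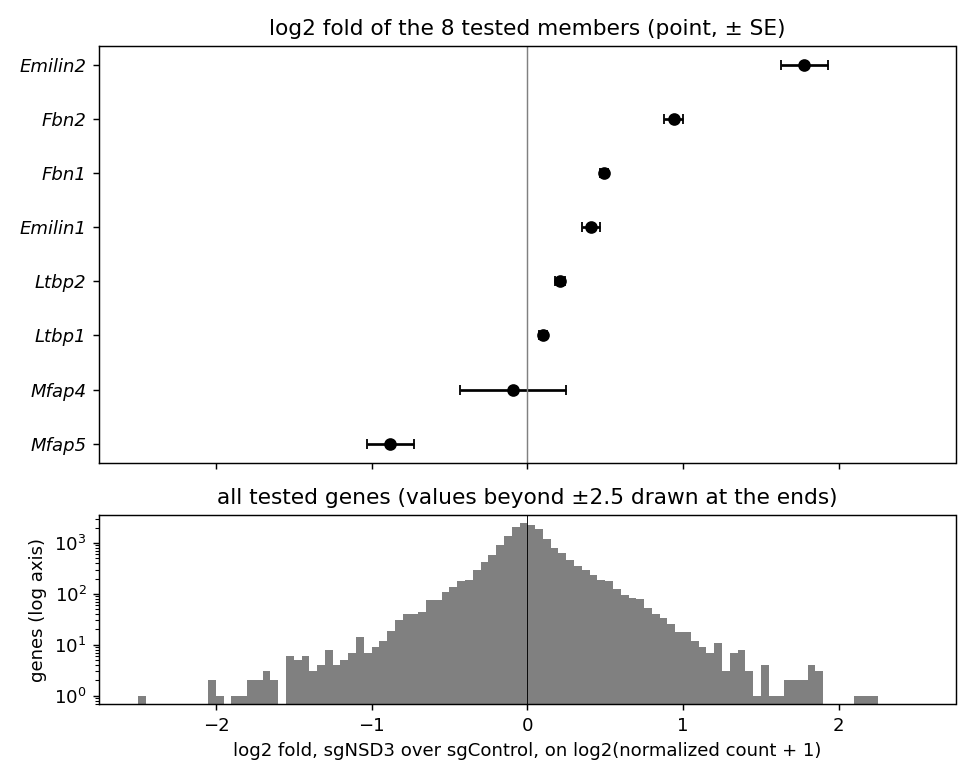
Log2 fold of sgNSD3 over sgControl (x axis, on log2(normalized count + 1)) for the 8 tested members with SE bars (top), above a histogram of all 18263 tested genes with a log y axis (bottom). Emilin2 (1.78), Fbn2 (0.94), Fbn1 (0.49) and Emilin1 (0.41) lie right of the bulk of genes and Mfap5 (-0.88) left of it, while Mfap4 spans 0.

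Genes whose levels ran most like those of Fbn1 over the 6 RNA libraries, by Pearson's r on log2(normalized count + 1), were Tmem86a (0.9997), Rcan2 (0.9994), Slit3 (0.9971), Aldh2 (0.9968) and Plscr4 (0.9968). For Emilin2 they were Rock1 (0.9988), Cpxm1 (0.9983), Zfp36l2 (0.9983), Safb2 (0.9977) and Macf1 (0.997). With 6 libraries in 2 labels, any gene that separates the labels cleanly scores high, and 92 and 97 genes passed an r of 0.98 with Fbn1 and Emilin2. Likeness of pattern did not mean likeness of size: Rcan2 was 2.33-fold and Slit3 1.17-fold higher in the libraries labelled sgNSD3.

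Around the members, 75 further genes were followed in 7 lists, most of them of elastic fibre assembly, growth factor storage, matrix binding, receptors and proteolysis. Mfap1a, Mfap1b, Mfap3 and Mfap3l were taken by name alone and are part of the counts here. Of the 62 tested, 18 rose and 8 fell in sgNSD3 libraries by the all-gene limma threshold, or 29.0% and 12.9%, where 5.44% and 6.44% of all tested genes did. Their median log2 fold was 0.00. The lists were drawn up with earlier results of these data known, so the counts are a description.

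Fibulins and lysyl oxidases build elastin onto microfibrils and cross-link it, and more of these genes rose than fell. Of 11 tested, 5 rose and 2 fell, with a median log2 fold of 0.14. Under quantile normalization 4 rose and 1 fell, with a median of 0.058, and without any 1 of the sgNSD3 libraries 1 fell. Hmcn1, a giant fibulin-family protein, averaged 717.0 ± 24.7 normalized counts in sgNSD3 libraries and 433.4 ± 31.8 in sgControl libraries (SD, n = 3 each), a 1.65-fold rise with a limma adjusted p of 4.06e-09. Fbln1, which binds elastin, rose 1.44-fold (limma adjusted p = 0.00776), a call lost without sgNSD3 replicate 1 or 3. Efemp1 (fibulin-3) rose 1.29-fold (limma adjusted p = 5.14e-07). Loxl3, a lysyl oxidase, fell 1.18-fold, to 1238 ± 49.1 in sgNSD3 libraries against 1457 ± 24.8 in sgControl libraries (SD, n = 3 each), with a limma adjusted p of 0.0003.

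Secreted ADAMTS-like proteins and ADAMTS proteases bind fibrillins and shape microfibrils, and among 8 tested 5 rose and 0 fell. At an unadjusted p under 0.05 by limma 0 fell too, and 0 by voom on recovered counts. Adamtsl1 averaged 52.33 ± 8.1 normalized counts in sgNSD3 libraries and 19.97 ± 4.44 in sgControl libraries (SD, n = 3 each), a 2.62-fold rise with a limma adjusted p of 8.11e-05. Thsd4 (ADAMTSL6), which promotes fibrillin-1 assembly, rose 1.73-fold (limma adjusted p = 0.0159), a call lost without sgControl replicate 2 or sgNSD3 replicate 3. Adamtsl3 rose 1.4-fold (limma adjusted p = 7.25e-06) and Adamts6 1.23-fold (0.0019).

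Growth factors that microfibrils hold, with the proteins that store them, moved both ways: of 11 tested, 3 rose and 2 fell, with a median log2 fold of -0.01. Bmp2 rose 2.04-fold, at 104.1 ± 18.8 in sgNSD3 and 51.14 ± 3.42 in sgControl libraries (SD, n = 3 each), with a limma adjusted p of 6.67e-05. Lrrc32 (GARP), which holds latent TGF-beta at the cell surface, rose 1.93-fold (limma adjusted p = 0.00149). Bmp7, at 6.66 ± 2.74 in sgNSD3 and 16.79 ± 2.13 in sgControl libraries (SD, n = 3 each), fell 2.52-fold (limma adjusted p = 0.0134), a call lost without sgNSD3 replicate 2. Tgfb3 fell 1.13-fold (limma adjusted p = 0.000231). Among proteoglycans and fibronectin 3 of 6 rose and 1 fell: Vcan, the fibrillin-binding proteoglycan versican, rose 1.65-fold (limma adjusted p = 5.94e-13) and Fn1 1.27-fold (6.04e-08), while Bgn, biglycan, fell 1.13-fold (7.54e-05). Hspg2 (perlecan) rose 1.11-fold (limma adjusted p = 0.00103), but under quantile normalization its log2 fold was -0.02 (adjusted p = 0.519), and that of Fn1 was 0.17 in place of 0.35.

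Of 9 integrin and elastin receptor genes tested, 0 rose and 2 fell, Itgb1 1.12-fold (limma adjusted p = 0.000274) and Glb1 1.09-fold (0.0434), with the Glb1 call lost in 9 of the alternatives. At an unadjusted p under 0.05, 2 of the 9 were higher and 4 lower by limma. By voom 0 were called higher and 3 lower, and 1 was called higher under quantile normalization and without sgControl replicate 1. Over all tested genes 5.44% passed as higher and 6.44% as lower. Of 11 proteases tested, Htra1 rose 1.3-fold (limma adjusted p = 1.19e-08) and Mmp13, a collagenase, fell 1.26-fold (4.15e-05). Without sgControl replicate 2, 2 proteases fell. Furin, which trims the fibrillin precursor and is named here after its values were seen, had a log2 fold of 0.00 ± 0.037 (SE). Of 6 tested EMILIN relatives and other genes named MFAP, Mmrn1 (multimerin) rose 1.23-fold (limma adjusted p = 0.0416), a call lost without sgControl replicate 1 or 2 or any sgNSD3 replicate, with no filter and under the replicate block by column number.

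**Figure D4:**
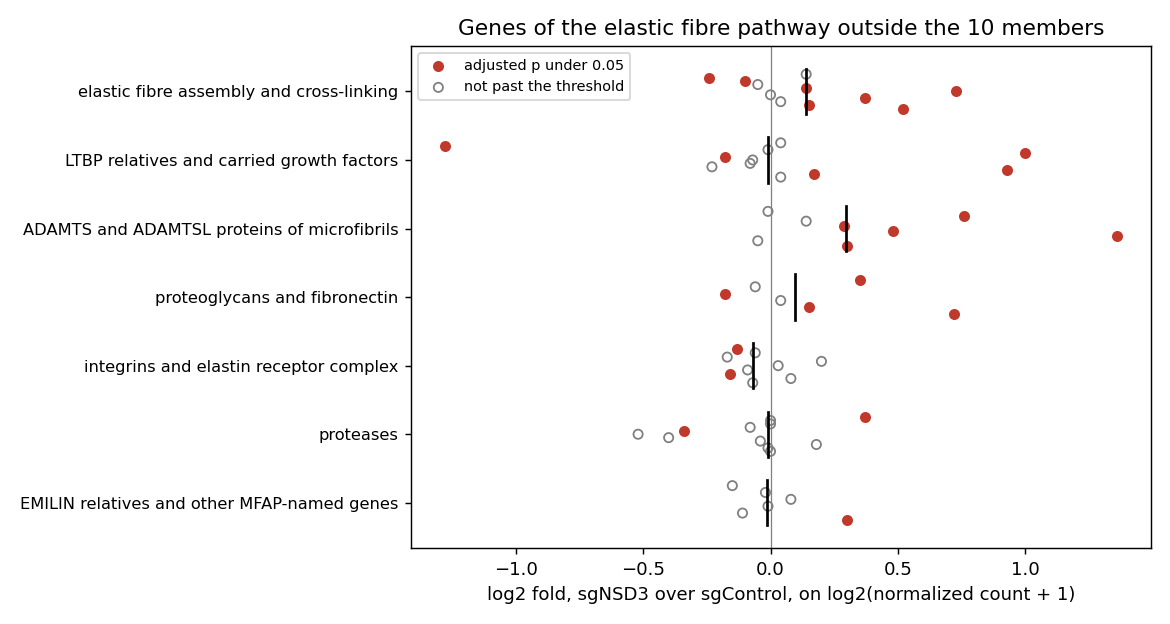
Log2 fold of sgNSD3 over sgControl (x axis, on log2(normalized count + 1)) for the 62 tested genes of the 7 lists (rows), with filled red points past the all-gene limma threshold, open points not past it and a black bar at each list's median. The highest median (0.29) is that of the ADAMTS and ADAMTSL list, and the lowest (-0.07) that of the integrins and elastin receptor complex.

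For chromatin, each gene body has a signed value in the authors' deposited table, in 1 column for H3K27me3, a mark of Polycomb repression, and 2 columns for H3K36me2, the mark that NSD enzymes lay down. The header does not name the libraries behind a column, so no change between the labels can be read from these scores and no test was possible. Whether a score is an amount of the mark or a difference between libraries is not given either, so it is not read as an amount. In the authors' deposited table all 10 members were above 0 in both H3K36me2 columns, as were 89.4% and 92.4% of all gene bodies. Their median scores there were 0.103 in the sample 1 column and 0.157 in the sample 2 column, against 0.0757 and 0.125 over all 22470 gene bodies. In the same deposited table, 8 and 6 of the 10 members lay above the column's median.

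Emilin2, the member with the largest RNA difference, had the highest H3K36me2 score of the members in the sample 2 column of the authors' deposited table, at 0.307 (percentile 95.9 of all gene bodies), and 0.103 (percentile 70.8) in the sample 1 column. For Fbn1 the authors' deposited table gives 0.129 (percentile 82.5) and 0.118 (percentile 47.8). Fbn2 had 0.0645 and 0.21 in the authors' deposited table (percentiles 44.8 and 82.8). The columns thus ordered the 2 fibrillins differently. Mfap4, with 0.18 and 0.0316 in the authors' deposited table (percentiles 93.5 and 13.5), and Emilin1, with 0.00463 and 0.152 (percentiles 13.6 and 62.8), differed most between the columns by percentile, and Emilin2 by the score itself. Emilin2, Ltbp1, Mfap2 and Mfap5 stood above the median in both columns of the authors' deposited table. In the authors' deposited table Ltbp1 had 0.179 and 0.163 (percentiles 93.2 and 66.5) and Mfap2 0.167 and 0.168 (percentiles 91.7 and 68.9). Ltbp2 was lowest on the mean of the columns in the authors' deposited table, at 0.0614 (percentile 24.6). Eln had 0.0774 and 0.11 in the authors' deposited table, close to the medians (percentiles 55.2 and 42.5). Mfap5, the member lower in RNA, had 0.103 and 0.168 there (percentiles 69.2 and 68.9).

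H3K27me3 scores of the members spread on both sides of the median, with 5 above and 5 below it, and 3 above 0. Ltbp1 was the highest in the authors' deposited table, at 0.233 (percentile 98.4 of all gene bodies). Eln (0.0686, percentile 86.1) and Mfap5 (0.0504, percentile 82.5) were the other 2 above 0 in the authors' deposited table. Mfap2 was the lowest there at -0.183 (percentile 3.05), followed by Ltbp2 at -0.0913 (percentile 13.2) and Mfap4 at -0.0715 (percentile 18.3). Fbn1, Emilin1, Emilin2 and Fbn2, at -0.0287, -0.0467, -0.00792 and -0.00652 in the authors' deposited table, lay between the column's quartiles.

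**Figure D5:**
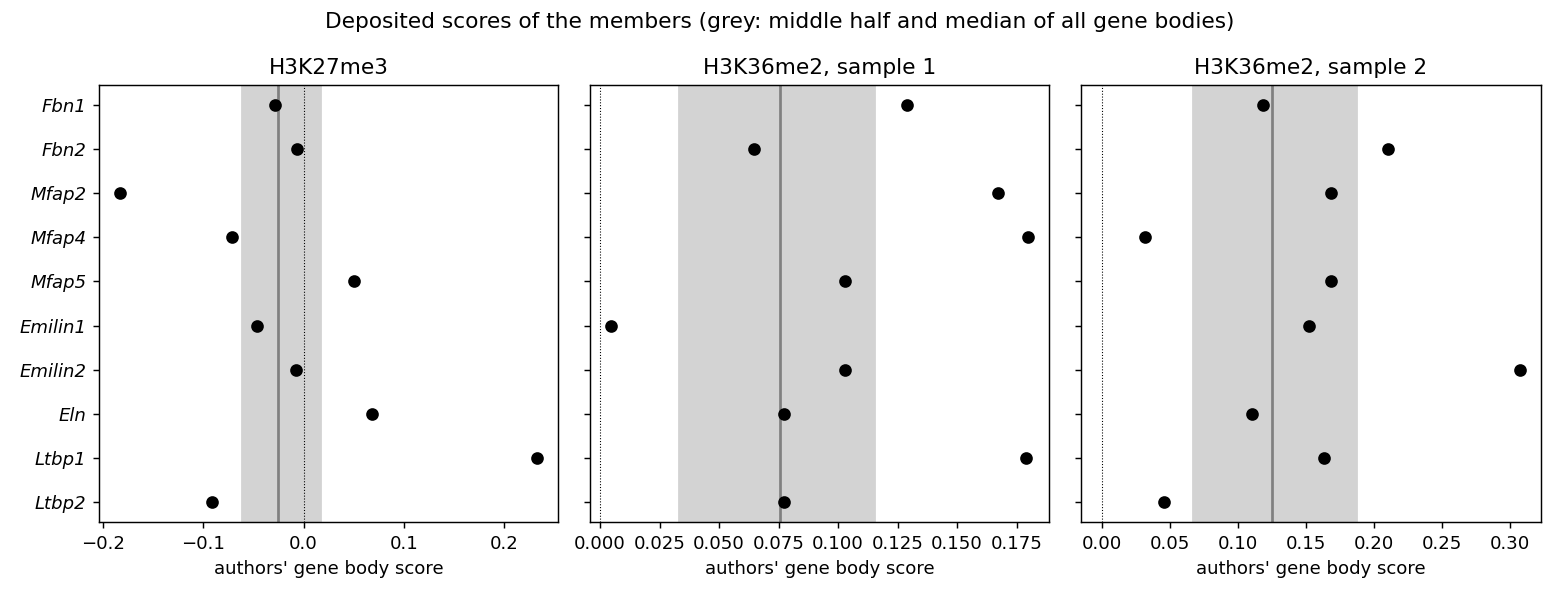
The authors' deposited score (x axis) of each member's gene body in the H3K27me3 column and the 2 H3K36me2 columns, with the range between the quartiles of all 22470 gene bodies shaded, their median as a grey line and 0 dotted. Ltbp1 is far right for H3K27me3 (0.233), Emilin2 is far right in the second H3K36me2 column (0.307), and most other members change order between the H3K36me2 columns.

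Many gene bodies carry exactly the same score, which limits how finely members can be ordered. In the sample 2 column of the authors' deposited table Mfap2 and Mfap5, which span 5553 and 15707 bases, shared their score with 356 other gene bodies each, to within 1e-06. In the H3K27me3 column of that deposited table, 391 other gene bodies shared the score of Emilin1. Ranked among gene bodies of a span within 1.5-fold of their own, a comparison added after seeing the data, Fbn1 moved to percentiles 77.9 and 36.3 for H3K36me2 and Emilin2 to 66.0 and 94.8, and Ltbp1 to 94.6 for H3K27me3, on the authors' deposited scores.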

How the data were processed

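The submitters' processing notes list HISAT2, featureCounts, DESeq2 and the mm10 build, and their roles, versions and settings are not given in the sources used here. RNA values were deposited by the authors as log2 expression. The header and the values fit a variance-stabilised scale on which a gene with 0 reads sits at 8.45, and its inverse returned whole reads (tolerance 0.05) for 100% of values above 0. The chromatin table holds a signed score that the authors deposited for each gene body. The sources used here give neither its making nor its libraries. The tables held 0 columns of other samples.

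Genes averaging at least 8 normalized counts entered a fit by limma 3.58.1 (R 4.3.3, trended eBayes, Benjamini-Hochberg adjustment, threshold 0.05) of the deposited log2 values. Log2 folds and SE come from the same model on log2(normalized count + 1), which understates changes of low genes. The scripts were tested on simulated data in which every library had the same spread. The libraries here differ in spread, so that test says nothing of the calls made on them. Replicate numbers are those of the titles, although the columns of sgNSD3 replicates 1, 2 and 3 are numbered 3, 1 and 2. Alternatives were other scalings, a pseudocount of 8, no filter, voom, replicate blocks and leaving out each library. The members, the lists and the rule for named genes were chosen with earlier results of these data known. That rule took all members, up to 4 called genes with the largest change per list, and the 5 genes most like Fbn1 and Emilin2, predicted symbols left out.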

Additional observations from a re-analysis of the deposited data

How the results depend on the processing

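Of the RNA results, the counts of members called higher and lower (6 and 1) stayed at 5 or 6 and at 1 under scaling, pseudocount, filter, voom, block and leave-one-out alternatives. The only member call lost was that of Ltbp1, without sgControl replicate 2, sgNSD3 replicate 2 or sgNSD3 replicate 3 (adjusted p = 0.0753, 0.107 and 0.202) and under the replicate block by column number (adjusted p = 0.0525). Leaving out 1 library gave 641 to 993 genes higher and 707 to 1164 lower, against 994 and 1176, and 15 to 19 higher and 5 to 9 lower genes of the 7 lists, against 18 and 8. The replicate block by title number gave 1119 higher and 1333 lower genes and by column number 919 and 1086. Same-numbered libraries showed no clear shared deviation, with correlations of 0.054, 0.024 and -0.015 by title number and -0.05, -0.084 and -0.015 by column number. With 3 libraries per label, this cannot settle whether the samples were paired. Among called genes that the text names, Hspg2 reversed, to a log2 fold of -0.021 under quantile normalization. Mfap4, which was not called, changed sign to 0.085 without sgControl replicate 3. Calls of Fbln1, Bmp7, Thsd4, Glb1 and Mmrn1 were lost 21 times in all, beside those of Ltbp1 and Hspg2. In the chromatin columns 5 or 6, 7 or 8, and 6 members lay above the median under each ranking tried. Depth limits Eln, Mfap2 and Mfap4, with at most 13 reads per library.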
